A study of Homo sapiens with 4 samples.

Results

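Histone genes encode the proteins that wrap DNA into nucleosomes, and they are described here in OPM2 cells, an established human multiple myeloma line, after VS-5584, an inhibitor of PI3 kinases and mTOR. The genes were chosen by symbol: those named as H1, H2A, H2B, H3 or H4 genes or as macroH2A in current nomenclature, with pseudogenes left out and with a probe set annotated to that gene alone. There were 67 such protein-coding genes among 18377 named genes on the array. Another 3 symbols matched by name were set aside: the pseudogenes H1-9P and H2BC19P, and H1-10-AS1, a noncoding antisense RNA. By symbol, 54 were replication-dependent genes (H1-1 to H1-5 and the H2AC, H2BC, H3C and H4C genes) and 13 were variant genes. Of the replication-dependent genes 48 lie on chromosome 6, 5 on chromosome 1 and 1 on chromosome 12.

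Expression was measured on 4 one-colour whole-transcript arrays, each from a separate sample of the single line OPM2. In 2 samples the cells had been given VS-5584 at 123 nM for 24 h (the series' design text states 125 nM), and in 2 they had been given DMSO, the solvent, for the same time. The replicates are titled biological, but how far their cultures were kept apart is unstated. The p-values thus rest on the spread between these samples, which may be technical. In limma, that spread is in part pooled over all tested genes. The value for each gene is 1 log2 intensity per array, and the precision is limited by the number of arrays.

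Replication-dependent histones are made in S phase, when DNA is copied and new nucleosomes are needed. Their mRNAs end in a conserved stem-loop instead of a poly(A) tail, and this stem-loop, bound by SLBP, controls their processing, translation and decay. When DNA synthesis stops they are degraded. Variant histones such as H2A.Z, H3.3 and macroH2A come from polyadenylated mRNAs made through the cell cycle and are placed at particular sites by their own chaperones. The labels name a whole-transcript amplification kit. How fully it captures mRNAs that lack a poly(A) tail is not stated in those labels. Many replication-dependent genes are also close copies of one another, so the signal of a single copy may include its relatives.

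The labelled line was checked against marker genes. All 7 plasma cell markers had mean log2 intensities from 7.28 to 11.15, with IRF4 and PRDM1, transcription factors of plasma cells, above 99% of named genes in level (percentiles 99.17 and 99.45). The 3 T cell markers and 4 monocyte markers measured lay at 4.67 to 5.33, within the dimmest 40% of genes. Of 2 erythroid and 4 stromal markers measured, HBB at 7.18 and COL1A1 at 6.34 lay above that limit and the others below it. HBB and COL1A1 differed by -0.10 and 0.10 between VS-5584 and DMSO cells, and their part in the results was not tested. The arrays were not alike: VS-5584 replicate 2 had 1.74 log2 units between its quartiles, against 1.93 to 1.95 on the others. Replicates of VS-5584 differed by an SD of 0.249 log2 units over the 11026 genes tested, and replicates of DMSO by 0.167. Over all probe sets the VS-5584 arrays had a Pearson correlation of 0.9853 with each other, and the DMSO arrays 0.9937. VS-5584 replicate 1 was closer to DMSO replicates 1 and 2 (0.9963 and 0.9934) than to VS-5584 replicate 2.

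Promoter letters of 6 histone genes are shown so that the short elements of these promoters can be compared between families. The sequences are from RefSeq (GRCh38.p14) and run from 250 bases before to 50 bases after the annotated start, 5′ to 3′ on the gene's strand. Capitals mark CCAAT, the letters bound by NF-Y; TATAAA, the usual TATA element; and ATTTGCAT, the octamer bound by POU2F1 (OCT1), on either strand. The windows are H1-2 (chr6:26056421-26056720, minus strand), H2AC21 (chr1:149887916-149888215, minus strand), H2BC12 (chr6:27146809-27147108, minus strand) and H3C2 (chr6:26032050-26032349, minus strand), the brightest tested replication-dependent gene of each of these families. Added after their values were seen were H2BC9 (chr6:26251364-26251663, plus strand), the sole tested replication-dependent gene with a higher mean after VS-5584, and the variant gene H2AZ1 (chr4:99950226-99950525, minus strand).
H1-2 promoter: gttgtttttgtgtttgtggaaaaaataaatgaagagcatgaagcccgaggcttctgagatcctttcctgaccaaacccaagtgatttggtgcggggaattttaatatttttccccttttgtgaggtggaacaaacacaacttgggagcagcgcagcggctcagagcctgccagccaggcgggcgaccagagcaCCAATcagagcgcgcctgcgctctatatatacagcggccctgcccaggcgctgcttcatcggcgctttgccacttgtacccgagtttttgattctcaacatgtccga
H2AC21 promoter: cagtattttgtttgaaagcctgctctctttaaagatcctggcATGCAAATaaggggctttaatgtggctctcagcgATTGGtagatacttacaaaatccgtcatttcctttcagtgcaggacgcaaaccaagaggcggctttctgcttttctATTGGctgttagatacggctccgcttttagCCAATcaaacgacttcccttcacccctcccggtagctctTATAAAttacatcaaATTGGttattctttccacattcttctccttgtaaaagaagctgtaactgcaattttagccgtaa
H2BC12 promoter: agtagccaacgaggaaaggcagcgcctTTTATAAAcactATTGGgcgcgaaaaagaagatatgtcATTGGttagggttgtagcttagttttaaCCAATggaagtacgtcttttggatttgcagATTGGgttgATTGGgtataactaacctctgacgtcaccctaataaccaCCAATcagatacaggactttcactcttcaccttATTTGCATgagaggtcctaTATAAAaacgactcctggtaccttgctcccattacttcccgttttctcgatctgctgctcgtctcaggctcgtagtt
H3C2 promoter: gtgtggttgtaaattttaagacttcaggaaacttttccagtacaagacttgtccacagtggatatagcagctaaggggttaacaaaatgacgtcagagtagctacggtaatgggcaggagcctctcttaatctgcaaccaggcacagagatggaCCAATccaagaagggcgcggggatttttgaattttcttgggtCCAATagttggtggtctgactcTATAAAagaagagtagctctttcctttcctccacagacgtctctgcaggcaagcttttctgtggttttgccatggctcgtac
H2BC9 promoter: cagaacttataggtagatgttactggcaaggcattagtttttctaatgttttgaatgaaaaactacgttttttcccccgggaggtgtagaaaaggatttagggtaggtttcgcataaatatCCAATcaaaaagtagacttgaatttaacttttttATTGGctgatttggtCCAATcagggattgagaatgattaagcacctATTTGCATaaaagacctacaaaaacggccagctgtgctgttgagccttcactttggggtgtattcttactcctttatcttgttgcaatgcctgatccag
H2AZ1 promoter: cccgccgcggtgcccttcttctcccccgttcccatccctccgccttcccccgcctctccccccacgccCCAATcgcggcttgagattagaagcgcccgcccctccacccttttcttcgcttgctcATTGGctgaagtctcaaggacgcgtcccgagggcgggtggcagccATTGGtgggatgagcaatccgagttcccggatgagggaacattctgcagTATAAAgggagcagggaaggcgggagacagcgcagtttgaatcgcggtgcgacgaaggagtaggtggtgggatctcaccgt

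A promoter of this length was found for 61 of the 67 genes. CCAAT occurred in 43 of 49 replication-dependent promoters (87.8%) and 9 of 12 variant promoters (75%), against 35.7% of all 27305 promoters in the table. The octamer occurred in 10 of 13 H2A and 13 of 16 H2B promoters and in 0 of the 20 H1, H3 and H4 promoters, against 1.8% of all promoters. TATAAA occurred in 34 of 49 replication-dependent promoters (69.4%) and 5 of 12 variant promoters (41.7%), against 12% of all. H2BC12 holds TATAAA matches on both strands that overlap in its far upstream part, besides the octamer 46 bases and a TATAAA 27 bases before the start. H2BC9 likewise holds CCAAT and an octamer, 49 bases before the start, but no exact TATAAA. H4 promoters held CCAAT in 3 of 9. These matches are descriptions of letters in these windows. H2A and H2B genes often lie head to head, so some windows overlap and share the same letters.

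After VS-5584, most replication-dependent histone mRNAs bright enough to test had lower means, and no single histone gene passed the test. Of the 54 replication-dependent genes 42 had a lower mean in VS-5584 than in DMSO cells, with a median log2 difference of -0.24, against 52.5% of all 18377 genes. By family, 4 of 5 H1, 13 of 14 H2A, 14 of 16 H2B, 4 of 8 H3 and 7 of 11 H4 genes were lower, and the H3 median was -0.0234. The 31 that passed the filter on dim genes had a median of -0.37, and 30 of them were lower. Over all 11026 genes tested, 62.7% were lower and the median was -0.06. The linker histone gene H1-5 had the largest decrease in mean, 1.75-fold, and H2BC9 was the sole tested replication-dependent gene with a higher mean. Among the 13 variant genes 9 were lower, with a median of -0.04.

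With limma, 0 of 42 tested histone genes had an adjusted p under 0.05, as was so for 0% of all tested genes. The smallest adjusted p among them was 0.276, for H1-2. At an unadjusted p under 0.05, 17 of 31 replication-dependent genes and 1 of 11 variant genes were lower, and 0 were higher. The shares over all tested genes were 8.93% lower and 1.49% higher. An ordinary two-sample test gave 7 of the 42 at an unadjusted p under 0.05. After adjustment it gave 0, as it did over all tested genes. The share of all tested genes under the unadjusted threshold is not given here for this test or the fit that follows, so these counts have no background. Without DMSO replicate 2, limma gave 1 of 42 genes lower at an unadjusted p under 0.05, against 18 with all arrays. Without VS-5584 replicate 1, 14 of 42 passed after adjustment, all lower, where 23.9% of all genes passed. That fit has a single VS-5584 array, which is assumed to vary like the DMSO pair that supplies its spread.

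In 29 of the 31 tested replication-dependent genes both VS-5584 arrays lay below both DMSO arrays, an arrangement seen in 29.2% of all tested genes. Taken singly, VS-5584 replicate 1 lay below both DMSO arrays in 30 of 31 (34.6% of all tested genes), and VS-5584 replicate 2 did in 29 of 31 (60.1% of all tested genes). Over all 54, including those too dim to test, both arrays did in 34, against 21.4% of all 18377 genes. The opposite arrangement, both VS-5584 arrays above both DMSO arrays, held for 3 of the 54, all below the filter (H1-1, H4C6 and H4C16), against 17.6% of all 18377 genes. The same count among the tested genes was 0, against 14.7% of all tested genes. Fewer cells in S phase and less histone mRNA per cell cannot be told apart in RNA from whole cultures.

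**Figure D1:**
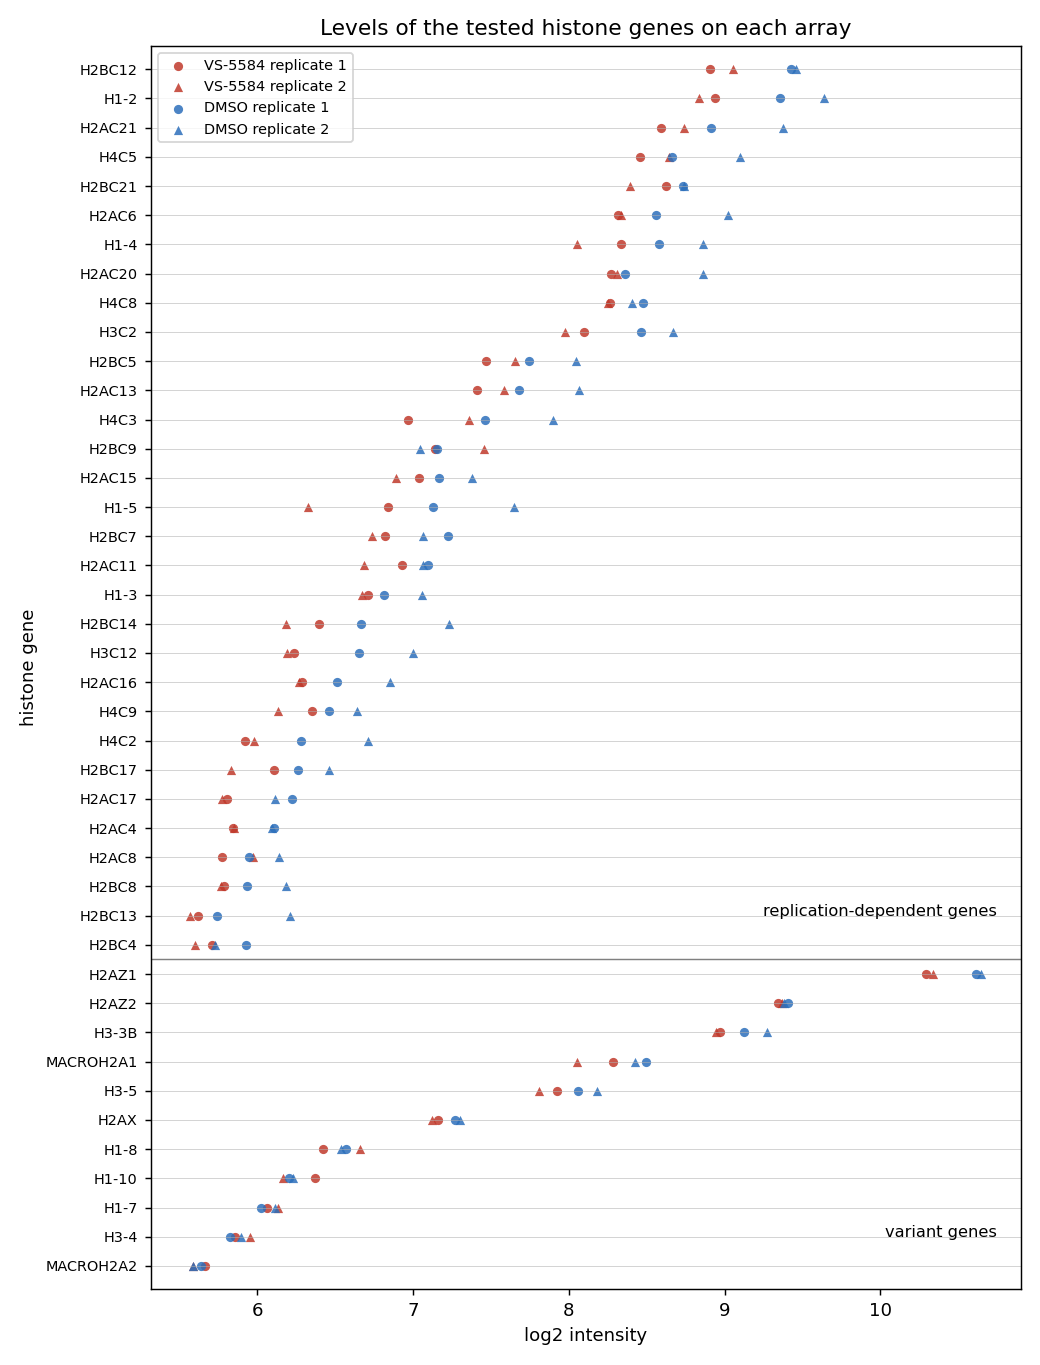
Log2 intensity (horizontal axis) of each of the 42 tested histone genes on each of the 4 arrays, with replication-dependent genes above the line and variant genes below it, ordered by mean level. Red points are VS-5584 and blue points DMSO, circles replicate 1 and triangles replicate 2; in 29 of 31 replication-dependent genes both red points lie left of both blue points.

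Linker histones of the H1 family bind the DNA between nucleosomes. H1-2, the brightest replication-dependent H1 gene, had log2 intensities of 8.94 and 8.84 in VS-5584 cells, against 9.36 and 9.64 in DMSO cells. Both VS-5584 values lay below both DMSO values. The log2 difference was -0.61 ± 0.15 (SE), or 1.53-fold, with a limma adjusted p of 0.276.

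H1-5 stood at 6.84 and 6.32 in VS-5584 cells, against 7.13 and 7.65 in DMSO cells. The groups did not overlap, but the replicates of each were 0.52 apart. The difference was -0.81 ± 0.21 (SE), with a limma adjusted p of 0.307. Without VS-5584 replicate 1 the difference was -1.06, and without DMSO replicate 1 it was -1.07. Without VS-5584 replicate 2 it was -0.55, and without DMSO replicate 2 it was -0.54. Each of these fits leaves 1 array in a group, so only the difference is given. H1-4 and H1-3 differed by -0.53 and -0.25, and H1-1, at a mean of 5.21, was too dim to test.

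Core histones H2A and H2B pair as dimers within the nucleosome. All 10 tested replication-dependent H2A genes had lower means, from -0.17 in H2AC8 to -0.48 in H2AC21, with a median of -0.35. H2AC21 had log2 intensities of 8.59 and 8.74 in VS-5584 cells, against 8.92 and 9.38 in DMSO cells. Both VS-5584 values were lower, and the DMSO replicates were 0.46 apart, close to the difference between groups of -0.48 ± 0.17 (SE, limma adjusted p = 0.416). H2AC8 was the 1 tested H2A gene whose groups overlapped.

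Among 10 tested H2B genes 9 had lower means. H2BC12 had log2 intensities of 8.91 and 9.05 in VS-5584 cells, against 9.43 and 9.46 in DMSO cells. Its DMSO replicates were only 0.03 apart, so the difference of -0.46 ± 0.13 (SE, limma adjusted p = 0.327) was nearly the same against either. H2BC14 stood at 6.39 and 6.18 in VS-5584 cells, against 6.66 and 7.23 in DMSO cells.

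Here the DMSO replicates were 0.56 apart, beside a difference of -0.66 ± 0.19 (SE, limma adjusted p = 0.324). H2BC9 stood at 7.14 and 7.45 in VS-5584 cells, against 7.16 and 7.05 in DMSO cells. VS-5584 replicate 2 lay above both DMSO arrays and replicate 1 between them, with a difference of 0.20 ± 0.15 (SE, limma adjusted p = 0.654). Its nearest head-to-head neighbour, H3C7, was below the filter and differed by 0.04.

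H3 and H4 form the tetramer at the core of the nucleosome. Only 2 of 8 replication-dependent H3 genes were bright enough to test, and both were lower. H3C2 had log2 intensities of 8.10 and 7.97 in VS-5584 cells, against 8.46 and 8.67 in DMSO cells, a difference of -0.53 ± 0.14 (SE, limma adjusted p = 0.307). H3C12 stood at 6.23 and 6.19 in VS-5584 cells, against 6.65 and 6.996 in DMSO cells. Its difference was -0.61 ± 0.15 (SE, limma adjusted p = 0.285), and the VS-5584 replicates were closer together than the DMSO replicates.

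All 5 tested H4 genes had lower means, from -0.18 in H4C8 to -0.55 in H4C2. H4C5, the brightest, had log2 intensities of 8.45 and 8.64 in VS-5584 cells, against 8.66 and 9.10 in DMSO cells. VS-5584 replicate 2 and DMSO replicate 1 nearly met, and the difference was -0.33 ± 0.17 (SE, limma adjusted p = 0.524).

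Below the filter, at a mean log2 intensity under 5.61, the 23 replication-dependent genes had a median difference of -0.0025, with 12 lower, and ranged from -0.37 in H2AC12 to 0.22 in H3C11. All genes below the filter had a median of 0.02. Between the filter and a level of 7, 16 of 16 replication-dependent genes were lower, with a median of -0.37, against 0.0012 for all 5962 genes of that range. From 7 to 8, 4 of 5 were lower (median -0.33, against -0.17 for all genes), and from 8 up 10 of 10 were (median -0.46, against -0.13). The deposited values have a lowest intensity of 19.75 to 20.01 on each array, and its part in these differences was not tested. Which of the 23 are expressed in these cells cannot be read from the table.

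**Figure D2:**
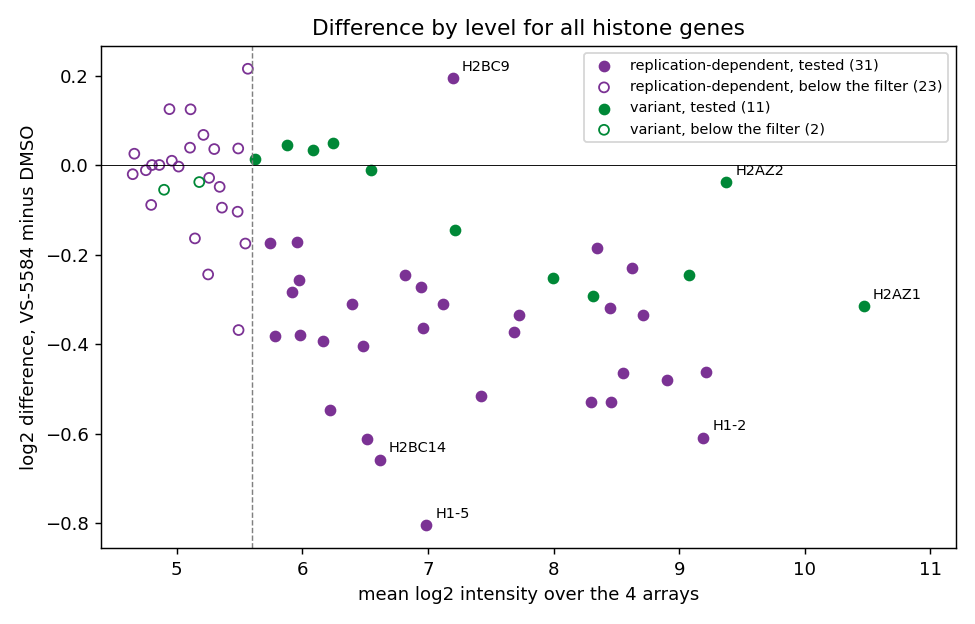
Log2 difference, VS-5584 minus DMSO, against mean log2 intensity over the 4 arrays for all 67 histone genes; filled points were tested, open points lie below the filter (dashed line). Tested replication-dependent genes run from -0.81 to 0.20 with 30 of 31 below 0, whereas the 23 below the filter scatter around 0.

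Head-to-head neighbours had differences of the same sign where both were tested. Among the RefSeq promoters, 10 pairs of these genes start within 1000 bases of each other on opposite strands, of which 9 join an H2A and an H2B gene with 215 to 248 bases between their starts. In all 5 pairs with both genes tested, both were lower. H2AC17 and H2BC17 differed by -0.38 and -0.39, and H2AC13 and H2BC13 by -0.37 and -0.38. H2AC20 and H2BC21 differed by -0.32 and -0.23, and H2AC8 and H2BC8 by -0.17 and -0.28. H2AC6 and H2BC4 differed most within a pair, at -0.46 and -0.17. Since 30 of 31 tested genes were lower in any case, the pairs add no separate evidence.

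Variant genes divided by gene. H2AZ1, which encodes H2A.Z.1, a variant placed at promoters, was the brightest histone gene, at 10.29 and 10.34 in VS-5584 cells, against 10.61 and 10.65 in DMSO cells. Its replicates were 0.05 and 0.03 apart, and the difference was -0.31 ± 0.13 (SE, limma adjusted p = 0.454). It was the 1 variant gene with an unadjusted p under 0.05 (0.0368).

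H2AZ2, which encodes the near-identical protein H2A.Z.2, stood at 9.34 and 9.37 in VS-5584 cells, against 9.41 and 9.38 in DMSO cells. The difference of -0.04 ± 0.13 (SE, limma adjusted p = 0.927) became 0.08 after cyclic loess normalization. The groups did not overlap but were less than 0.01 apart at their nearest values. Whether H2AZ1 and H2AZ2 differ from each other in response was not tested.

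H3-3B, a gene for the replacement histone H3.3, had log2 intensities of 8.97 and 8.94 in VS-5584 cells, against 9.13 and 9.27 in DMSO cells, a difference of -0.24 ± 0.13 (SE, limma adjusted p = 0.550). H3-5, a gene for the closely related H3.5, stood at 7.93 and 7.81 in VS-5584 cells, against 8.06 and 8.18 in DMSO cells, a difference of -0.25 ± 0.13 (SE, limma adjusted p = 0.545). Both had groups that did not overlap, and their sequences are alike enough that signal may be shared.

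MACROH2A1, which encodes an H2A with a large macro domain linked to silent chromatin, had 8.28 and 8.05 in VS-5584 cells, against 8.49 and 8.43 in DMSO cells. The groups did not overlap, and the difference was -0.29 ± 0.14 (SE, limma adjusted p = 0.504). MACROH2A2 stood at 5.66 and 5.59 in VS-5584 cells, against 5.64 and 5.59 in DMSO cells, close to the filter. Its difference of 0.01 turned to -0.03 with median centring and -0.04 with cyclic loess.

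H2AX, whose protein is phosphorylated at DNA breaks and whose gene also makes a stem-loop mRNA, had 7.16 and 7.12 in VS-5584 cells, against 7.27 and 7.30 in DMSO cells. The difference was -0.14 ± 0.13 (SE, limma adjusted p = 0.699), with groups that did not overlap. H1-10, a linker histone variant, stood at 6.37 and 6.17 in VS-5584 cells, against 6.21 and 6.23 in DMSO cells. Its difference was 0.05 ± 0.14 (SE, limma adjusted p = 0.905), with overlapping groups, and became -0.05 without VS-5584 replicate 1. H1-7, H1-8 and H3-4, known from germ cells, differed by 0.03, -0.01 and 0.05. H2AJ, at a mean of 5.18, and H1-6, at 4.90, were too dim to test. H3-3A was not analysed here because its probe sets also carry another gene.

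Compared by class among tested genes, the median of replication-dependent genes lay 0.33 log2 units below that of variant genes (-0.37 against -0.04). The variant median includes H1-7, H1-8 and H3-4, known from germ cells, which differed by 0.03, -0.01 and 0.05. The distance between the classes without them was not computed. By level, the variant median was 0.03 from the filter to 7 (5 genes), -0.20 from 7 to 8 (2 genes) and -0.27 from 8 up (4 genes). All genes of these ranges had 0.0012, -0.17 and -0.13. In 6 of 11 tested variant genes both VS-5584 arrays lay below both DMSO arrays, against 29.2% of all tested genes. Both lay above in 0, against 14.7%. With the dimmest 60% of genes left out, the variant median was -0.24 and the distance between the classes was -0.13. The variant genes then remaining were H2AZ1, H3-3B, H3-5 and MACROH2A1, with differences from -0.31 to -0.24, and H2AX, H2AZ2 and H1-8, at -0.14, -0.04 and -0.01. Counting H2AX, H3-4 and H1-6 as replication-dependent gave -0.33 for that distance.

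**Figure D3:**
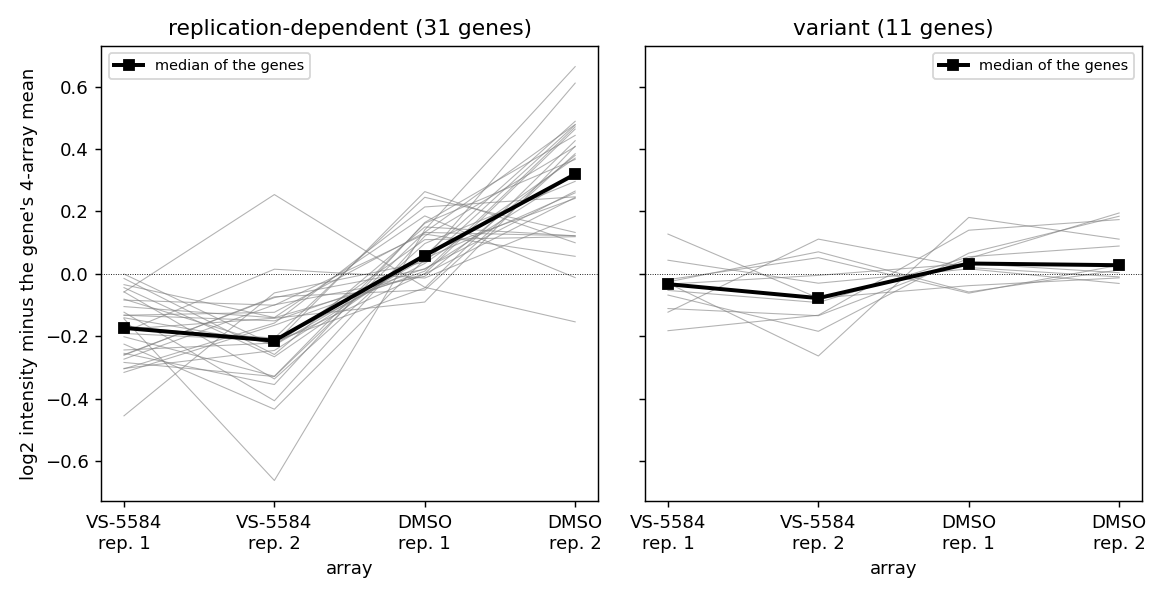
Log2 intensity of each tested histone gene minus its own mean over the 4 arrays, by array, for 31 replication-dependent genes (left panel) and 11 variant genes (right panel); grey lines join values of the same gene and black squares are medians. The replication-dependent genes are low on both VS-5584 arrays, near 0 on DMSO replicate 1 and high on DMSO replicate 2.

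The DMSO arrays themselves differed in the same genes. In 24 of 31 tested replication-dependent genes DMSO replicate 1 lay below DMSO replicate 2, against 47% of all tested genes, and the median of replicate 1 minus replicate 2 was -0.25, against 0.01 for all tested genes. For variant genes it was -0.03. The difference between treated and control means exceeded the gap between the DMSO replicates in 25 of 31 replication-dependent genes, against 58.1% of all tested genes. For VS-5584 replicate 1 minus replicate 2 the median was 0.03, with 12 of 31 genes lower on replicate 1 and single genes from -0.39 (H4C3) to 0.52 (H1-5), against a median of 0.15 for all tested genes.

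Array against array, the median over the 31 genes was -0.24 for VS-5584 replicate 1 minus DMSO replicate 1 and -0.49 for VS-5584 replicate 2 minus DMSO replicate 2. Crossed, it was -0.55 for VS-5584 replicate 1 minus DMSO replicate 2 and -0.28 for VS-5584 replicate 2 minus DMSO replicate 1. The size of the decrease thus depended on which control was used. Without DMSO replicate 2 the median was -0.25, and without DMSO replicate 1 it was -0.49. In either case 30 of 31 genes were lower. The smallest of these 4 medians, -0.24, was about as large as the gap of -0.25 between the controls.

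Factors of histone supply were given as context. From 15 genes of histone transcription and mRNA processing 12 were tested, and all 12 were lower, against 62.7% of all tested genes, with a median of -0.22. On VS-5584 replicates 1 and 2 minus the DMSO mean, their medians were -0.09 and -0.37, against -0.0022 and -0.14 for all tested genes. The list's median level was 8.4, and all genes at a level of 8 and above had a median difference of -0.13. Unadjusted p was under 0.05 and the mean lower in 4 of 12, against 8.93% of all tested genes, and 0 passed after adjustment. LSM10, a subunit of the U7 particle that cuts histone pre-mRNA, had 6.46 and 6.26 in VS-5584 cells, against 6.90 and 6.81 in DMSO cells, a difference of -0.50 ± 0.14 (SE, limma adjusted p = 0.313). ERI1, an exonuclease that trims the stem-loop, and ZNF473, a zinc finger protein of the U7 complex, differed by -0.41 and -0.38. SLBP differed by -0.07, NPAT, the coactivator of histone genes at the histone locus body, by -0.26, and CASP8AP2, another protein of that body, by -0.19.

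Of 27 chaperone and deposition genes 26 were tested, 22 were lower, against 62.7% of all tested genes, and the median was -0.29. On VS-5584 replicates 1 and 2 minus the DMSO mean, the list's medians were -0.16 and -0.44, against -0.0022 and -0.14 for all tested genes. The list's median level was 8.4, and all genes at a level of 8 and above had a median difference of -0.13. In 9 of 26 the unadjusted p was under 0.05 and the mean lower, against 8.93% of all tested genes, and 0 passed after adjustment. HJURP and MIS18A, which deposit or license the centromeric histone CENP-A, differed by -0.73 and -0.57, and MMS22L, which works with TONSL at stalled forks, by -0.66. ASF1B, an H3-H4 chaperone, differed by -0.61, and CHAF1A and CHAF1B, the large and middle subunits of the assembly factor CAF-1, by -0.63 and -0.57. NASP, which guards soluble H3 and H4, differed by -0.39. CENPA was not analysed here.

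DNA replication genes were set beside the histone genes array by array. A list of 15 such genes (the MCM helicase, PCNA, ribonucleotide reductase and others) had a median of -0.50, with 15 of 15 lower, against 62.7% of all tested genes. All genes at a level of 8 and above had a median of -0.13, beside a median level of 8.4 for this list. On VS-5584 replicate 1 and replicate 2 minus the DMSO mean, its medians were -0.25 and -0.84. The replication-dependent histone genes had -0.36 and -0.39 on the same arrays, and all tested genes -0.0022 and -0.14. The median levels on these arrays were 8.32 and 7.76 for the replication genes, and 6.93 and 6.74 for the tested replication-dependent histone genes. The part of level in these patterns was not tested. For DMSO replicate 1 minus replicate 2 the replication genes had a median of 0.09, and the histone genes -0.25. The 3 replication genes with the smallest p were GINS1, RRM2 and CDC45, which differed by -0.92, -0.77 and -0.69. These comparisons share the DMSO arrays, and no test of the difference between the lists was made.

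**Figure D4:**
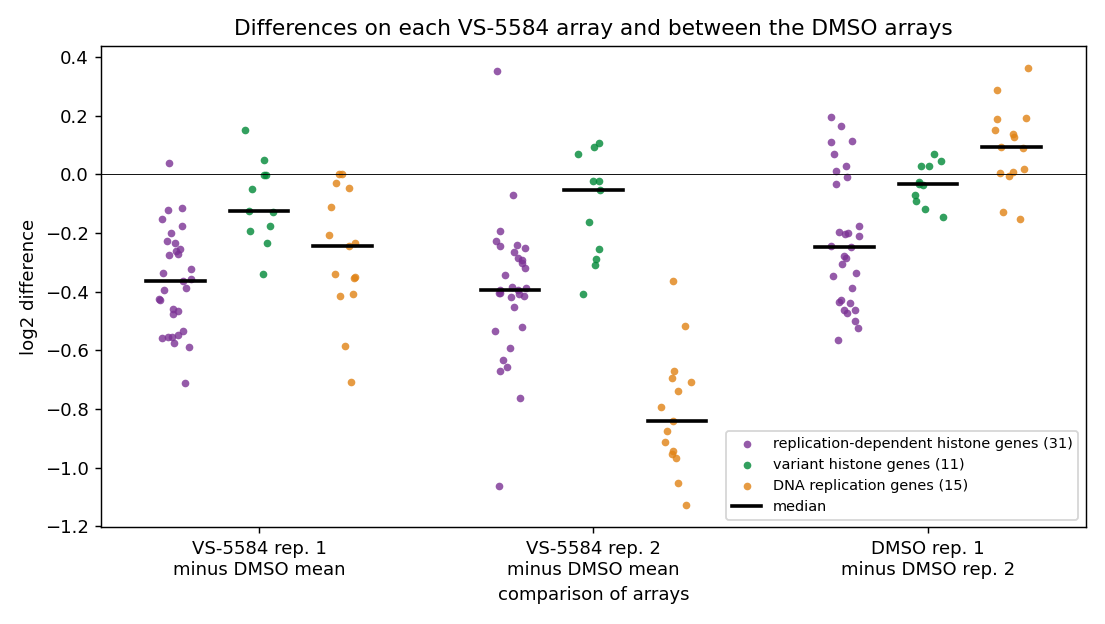
Log2 differences of tested genes for VS-5584 replicate 1 minus the DMSO mean, VS-5584 replicate 2 minus the DMSO mean, and DMSO replicate 1 minus DMSO replicate 2, with a point for each gene and black bars for medians. Replication-dependent histone genes have medians of -0.36, -0.39 and -0.25, variant genes -0.13, -0.05 and -0.03, and DNA replication genes -0.25, -0.84 and 0.09.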

How the data were processed

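The authors deposited 1 intensity per probe set and array (28869 probe sets), on a linear scale. Per the submitters' processing notes, RMA was used; no version is named. How RMA's values, usually log2, became these intensities is unstated, and an added constant would shrink the differences of dim genes. Intensities were turned into log2 values without further normalization. Gene names came from the platform annotation, updated by gene ID through RefSeq (GRCh38.p14; 19279 of 19310 single-gene probe sets matched). No histone gene had more than 1 usable probe set. Of 18377 genes, the dimmest 40% by 4-array mean (below a log2 of 5.61) were left out. The other 11026 were tested by lmFit and eBayes in limma 3.58.1 under R 4.3.3, with group as the sole term, two-sided, with Benjamini-Hochberg adjustment over all of them and a threshold of 0.05. eBayes draws each gene's variance towards a value shared by all tested genes, so an SE is not the gene's own replicate spread. H2AZ1 had replicate SDs of 0.035 and 0.024 and an SE of 0.13. H1-5 had replicate SDs of 0.37 and 0.37 and an SE of 0.21.

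Group and replicate were taken from the titles. Members and gene lists were chosen with earlier results of these data known. Named genes are the 6 smallest p-values in each class, the brightest replication-dependent gene of each family, a panel of variant genes, and in each context list the 3 smallest p-values plus fixed genes. Members outside this rule are named after their values were seen, as ends of ranges, pairs or exceptions. Class medians carry no test. The code was tested on simulated data. Alternatives changed the scaling, filter, probe sets, prior variance, replicate block, test, class assignment and arrays used. Figures were drawn with matplotlib 3.10.9.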

Additional observations from a re-analysis of the deposited data

How the results depend on the processing

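Over the alternatives run on the histone genes, the medians of both classes stayed negative, and 30 of 31 tested replication-dependent genes were lower under median centring, cyclic loess, subtraction of 16 from each intensity and every omission of an array. The number of histone genes passing limma's threshold was 0 in most alternatives and ranged from 0 to 14 when an array was left out: 14 without VS-5584 replicate 1 and 1 without DMSO replicate 1, fits in which the lone array is assumed to vary like the other group. In the same fits 23.9% of all tested genes passed without VS-5584 replicate 1, and 0.172% without DMSO replicate 1. The 14 thus stand against a high background. With the replicate number as a block, 8 histone genes passed (3.92% of all genes). Nothing in the labels says that a number marks a shared culture or day. Deviations of same-numbered samples correlated at 0.156 over tested genes. Over all probe sets, VS-5584 replicate 1 correlated at 0.9963 with DMSO replicate 1 and 0.9934 with DMSO replicate 2. For VS-5584 replicate 2 these values were 0.9801 and 0.9842, so each was closer to the DMSO sample of its own number. Whether the numbers pair the samples was not tested. The replication-dependent median was -0.24 with no filter on dim genes and with all members taken, an alternative added after the data were seen, and ran from -0.49 to -0.25 when an array was left out. The variant median was -0.083 with median centring, -0.24 with the lowest 60% of genes left out, and -0.13 to -0.0225 without an array. The distance between the classes was -0.21 with no filter or all members, -0.13 with the lowest 60% left out, and -0.47 to -0.20 without an array. The sign turned for 3 named variant genes near 0: H1-10 (-0.052 without VS-5584 replicate 1, the lowest of -0.052 to 0.15 when an array was left out), H2AZ2 (0.083 with cyclic loess) and MACROH2A2 (-0.031 with median centring, -0.042 with cyclic loess, -0.0226 without VS-5584 replicate 1 and -0.0091 without DMSO replicate 2, in a range of -0.0226 to 0.051). The causes were not tested.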

Other observations

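A further 24 probe sets are annotated to several genes of which at least 1 is a histone gene, and they entered no comparison because none can be assigned to a single gene. Their log2 differences, VS-5584 minus DMSO, ran from -0.66 to 0.20 with a median of -0.12, and 17 of 24 were lower, against 52.5% of all 18377 named genes. In 10 of 24 both VS-5584 arrays lay below both DMSO arrays, against 21.4% of all named genes.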
